A study of Homo sapiens with 18 samples.

Results

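Imatinib blocks the Bcr-Abl1 kinase on which K562 cells depend. K562 is an erythroleukemic line derived from chronic myeloid leukemia in blast crisis. Described here are the 3 libraries from cells that received 1 µM imatinib for 18 h (IM 18h) and the 3 libraries from untreated cells that were prepared alongside them (CTRLim), 6 of the 18 libraries of the series. They were taken by their labels, and every transcript of the deposited readthrough table entered the comparison. The question is which classes of genes gained and which lost readthrough reads during a long block of the kinase. A readthrough read is a long read of nascent, chromatin-bound RNA whose 3′ end lies more than 100 nt past the last exon of its gene, so that it stems from an RNA polymerase II that has passed the cleavage site. The other libraries, 3 in each group, are untreated cells of another library set (CTRL), cells given the same dose of imatinib for 1 h (IM 1h), cells given 5 µM JTE-607 for 1 h and cells given 110 mM KCl for 45 min. RNA with a poly(A) tail and ribosomal RNA were depleted before sequencing.

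In background, Bcr-Abl1 keeps the transcription factor STAT5 active, and STAT5 drives genes for survival and for feedback on cytokine signals. Loss of the kinase signal slows division of K562 cells and moves them toward erythroid differentiation, in which GATA1 and TAL1 switch on genes for globins, heme and the red cell membrane. Past the end of most genes, polymerase is released after cleavage at a poly(A) signal. Replication-dependent histone genes are instead cleaved behind a stem-loop and carry no poly(A) tail.

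The sequences of a few genes on which the results turn show these signals. First are promoters, from 250 bases before to 50 bases after the RefSeq start site (GRCh38.p14), because their genes fell or rose after 18 h. In the CISH promoter (chr3:50611725-50612024, minus strand) capitals mark the letters TTCNNNGAA, a form of the STAT site, at positions -241, -230, -129 and -112 from the start site. In the promoters of KEL (chr7:142962314-142962613, minus strand), HBD (chr11:5234434-5234733, minus strand) and TAL1 (chr1:47232286-47232585, minus strand, one of its promoters in the table) capitals mark AGATAA, letters that GATA1 can bind, or their reverse complement, at -62, -78 and -35.
CISH: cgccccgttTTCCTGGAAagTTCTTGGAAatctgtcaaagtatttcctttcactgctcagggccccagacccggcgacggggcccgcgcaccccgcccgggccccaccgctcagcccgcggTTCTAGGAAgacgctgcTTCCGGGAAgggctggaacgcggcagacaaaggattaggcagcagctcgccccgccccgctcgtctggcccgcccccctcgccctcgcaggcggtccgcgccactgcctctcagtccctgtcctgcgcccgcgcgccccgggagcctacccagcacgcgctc
KEL: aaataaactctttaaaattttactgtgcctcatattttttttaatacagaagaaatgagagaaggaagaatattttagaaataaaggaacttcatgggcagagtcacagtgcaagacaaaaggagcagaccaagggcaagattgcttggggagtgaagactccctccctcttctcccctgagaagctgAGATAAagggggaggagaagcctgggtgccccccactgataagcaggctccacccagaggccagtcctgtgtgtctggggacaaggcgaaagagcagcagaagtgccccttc
HBD: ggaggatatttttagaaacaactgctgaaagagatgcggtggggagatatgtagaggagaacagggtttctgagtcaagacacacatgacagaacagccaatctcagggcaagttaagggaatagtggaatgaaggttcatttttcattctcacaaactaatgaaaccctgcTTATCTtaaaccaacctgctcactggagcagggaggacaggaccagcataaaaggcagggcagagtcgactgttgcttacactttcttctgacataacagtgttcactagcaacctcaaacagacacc
TAL1: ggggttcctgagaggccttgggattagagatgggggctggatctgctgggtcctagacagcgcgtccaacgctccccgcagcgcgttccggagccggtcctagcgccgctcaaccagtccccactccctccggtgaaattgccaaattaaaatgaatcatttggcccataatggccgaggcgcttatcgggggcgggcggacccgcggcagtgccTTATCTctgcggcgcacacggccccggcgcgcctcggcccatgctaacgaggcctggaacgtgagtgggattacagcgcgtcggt

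The 30-base windows below lie at the ends of transcripts (GENCODE 44, GRCh38), and they are shown because the histone results below are given by the signal at the gene end. Capitals mark CTTTTNAG, the core of the histone stem-loop, in H2BC12, H3C2, H4C9 and H1-2. They mark the poly(A) signal AATAAA in PIM1, HBG1 and the histone genes H2BC21 and H2AC6.
H2BC12: aaccccaaaggctCTTTTAAGagccactta
H3C2: acccaaaggctCTTTTCAGagccacccact
H4C9: ctaaaaaggccCTTTTTAGggcccctaagc
H1-2: aaacccaaaaggctCTTTTCAGagccacca
PIM1: ggcgttttttgAATAAAaaccttttgtctt
HBG1: gcaatacaaatAATAAAtctattctgctga
H2BC21: ctattgttattAATAAAgttaccaattaat
H2AC6: tggcatgaggtAATAAAaggtaatgcaaag

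The CTRLim libraries held 229855 to 540074 reads and 10202 to 20486 readthrough reads. The IM 18h libraries held 939959 to 1349556 and 34547 to 49827, or 2.83 times the library reads of the controls in sum. Splicing intermediates, which the authors removed, had made up 15.2 to 17.8% of the reads in CTRLim and 9.11 to 11.3% in IM 18h, and the part of this difference in the results was not tested. CTRLim 1 was the smallest library. Its counts differed from CTRLim 2 and CTRLim 3 beyond sampling noise (chi-square over genes, p = 1.6e-13 and 3.89e-11), as did those of each pair of IM 18h libraries (p from 2.42e-67 to 3.5e-17). CTRLim 2 and CTRLim 3 were the exception, with no difference shown beyond sampling noise (chi-square over 192 genes, p = 0.0931). Their mapped shares of 86.7% and 88.1% were unlike, so they were kept as 2 libraries, and counts of calls are also given with both summed to 1. Of 12 erythroid marker genes 7 had enough reads to be tested and HBZ had none, whereas 3 of 3 myeloid markers in the table (CD33, LYZ and SPI1) had no read in any of the 6 libraries and of lymphoid markers CD79A had none and CD3D had 1 read in each of CTRLim 2 and CTRLim 3. The erythroid markers summed to 448 to 822 readthrough reads per 1000000 library reads in CTRLim and 1220 to 1291 in IM 18h. In a wider list of myeloid and lymphoid markers, 9 of 11 in the table had no read in the 6 libraries. On the same scale these 11 summed to 5.55 to 8.70 in CTRLim and 3.70 to 18.1 in IM 18h. Values below are RPM, that is, readthrough reads of a transcript per 1000000 library reads. They mix how much a gene was transcribed with how often its RNA escaped cleavage, and these cannot be told apart here. Fewer cells with a transcript and less of it per cell cannot be told apart either.

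Readthrough reads over all transcripts made up 4.44%, 3.79% and 3.85% of library reads in the 3 CTRLim libraries and 3.68%, 3.74% and 3.69% in the 3 IM 18h libraries. The means were 4.03% ± 0.358 and 3.70% ± 0.0321 (SD, n = 3 each), and every IM 18h library lay below every control. A two-sided exact permutation test gave p = 0.1, the smallest that 3 against 3 libraries allow. Without CTRLim 1 the difference shrank from -0.324 to -0.118 percentage points, and with splicing intermediates kept in the totals it was -0.0281. With mapped reads as the totals it was -0.0294. The share also depended on the control: the CTRL libraries stood at 3.33%, 3.32% and 3.55%, below every IM 18h library. With the 6 untreated libraries as the control the difference was -0.0109.

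Single genes changed in both directions. Of 1386 transcripts that reached 30 readthrough reads in the 6 libraries together, 196 (14.1%) passed the quasi-likelihood test of edgeR at a Benjamini-Hochberg adjusted p of 0.05, of which 72 (5.19%) were higher and 124 (8.95%) were lower in IM 18h. The libraries of both groups did not overlap for 439 transcripts (31.7%), 184 of them higher (13.3%) and 255 lower (18.4%). The median log2 fold change of all tested transcripts was -0.01. Genes that rose had mostly been near the detection limit: their median level was 3.64 RPM in CTRLim and 19.9 in IM 18h, and for 5 of them no CTRLim library had a read. The 30 reads were summed over both groups, so a gene nearly unread in CTRLim was tested only where IM 18h reads carried it. Genes that fell had a median of 35.9 RPM in CTRLim and 13.4 in IM 18h, beside medians of 11.3 and 10.2 over all tested. Without CTRLim 2 the count of called genes was 116, without CTRLim 3 it was 120, without CTRLim 1 it was 170, and with CTRLim 2 and 3 as 1 library it was 154. In none of these settings did a gene called with all 6 libraries change direction.

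**Figure D1:**
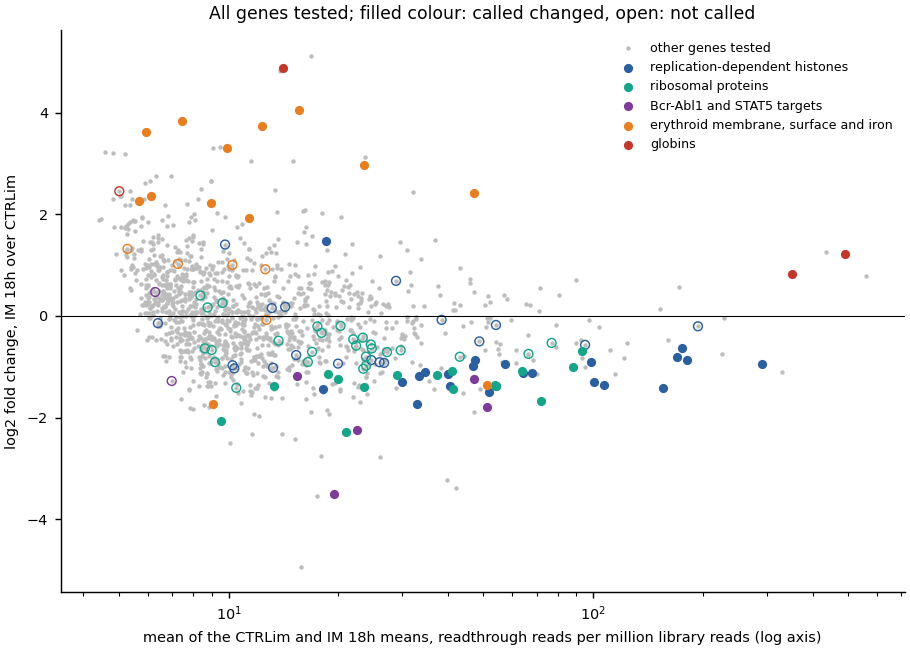
Each point is 1 of the 1386 tested transcripts, placed by the mean of both group means in RPM (log axis) and by its log2 fold change, IM 18h over CTRLim; transcripts without a read in CTRLim are at their lower bound. Members of 5 gene lists are coloured, filled where they passed the test and open where they did not, and other transcripts are grey: histone and ribosomal protein genes lie mostly below 0, globin and erythroid genes mostly above.

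Several genes downstream of the kinase had fewer readthrough reads. Of 7 tested members of a list of Bcr-Abl1 and STAT5 targets, 5 fell and none rose, with a median log2 fold change of -1.28. Among all tested transcripts 8.95% were lower and 5.19% higher. PIM1, a survival kinase, had 82.7, 79.6 and 77.2 RPM in the CTRLim libraries and 16.0, 32.1 and 19.3 in IM 18h. Its fall of -1.80 ± 0.29 (log2, SE, n = 3 each) had an edgeR adjusted p of 1.04e-05. CISH, a feedback inhibitor of cytokine signals whose promoter is printed above, went from 39.2, 31.5 and 42.7 to 1.06, 8.61 and 11.9 RPM (log2 fold change -2.25 ± 0.42, edgeR adjusted p = 9.3e-05). All IM 18h libraries were below all controls for both genes. ID1, an inhibitor of differentiation factors, went from 34.8, 46.3 and 26.4 to 2.13, 3.13 and 3.70 (-3.49 ± 0.45, edgeR adjusted p = 9.1e-08). MYC, which drives growth, went from 82.7, 57.4 and 60.9 to 25.5, 26.6 and 29.6 (-1.23 ± 0.28, edgeR adjusted p = 0.00147). The groups did not overlap for these genes either, but ID1 was at a mean of 5.91 RPM in the untreated cells of CTRL. MCL1, an anti-apoptotic gene, fell by 1.18 on the log2 scale with an edgeR adjusted p of 0.0436, a call that was lost when any library but IM 18h 1 was left out (adjusted p from 0.0737 without IM 18h 2 to 0.14 without CTRLim 2). ID3 (-1.28 ± 0.63) and CCND3 (0.47 ± 0.67) did not pass.

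After 1 h of imatinib, PIM1 stood at 6.55 ± 2.98 RPM (SD, n = 3), CISH at 2.82 ± 1.01 and ID1 at 2.15 ± 1.88. The IM 18h values of PIM1 and CISH averaged 22.4 and 7.18 RPM, and MYC was at 41.1 ± 3.88 after 1 h and 27.3 ± 2.13 after 18 h. Both time points share the CTRLim libraries, and no test of their difference is given for these genes. CISH was the only tested gene whose promoter held the STAT letters 4 times, a number that 7 of all 35116 promoters in the table reach. The letters stood at least once in 7 of the 104 promoters of genes that fell (6.73%), in 97 of 1071 promoters of tested genes (9.06%) and in 7.66% of all promoters. The last share is by promoter, and a gene can have several.

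**Figure D2:**
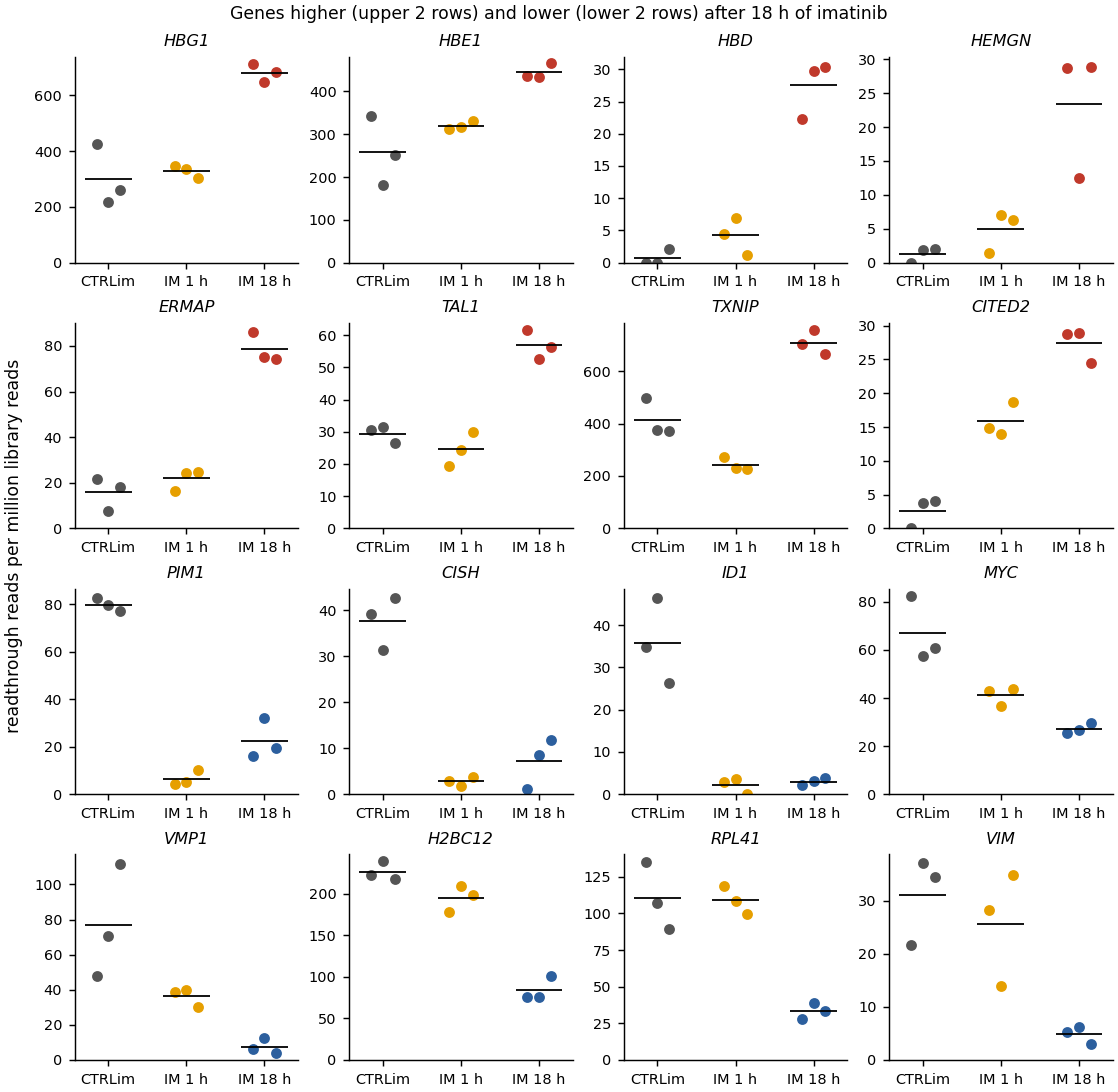
RPM (linear axes from 0) in each of the 3 CTRLim, IM 1h and IM 18h libraries for 8 genes that rose (upper rows) and 8 that fell (lower rows) after 18 h; bars are means. PIM1, CISH and ID1 are already low after 1 h, whereas HBG1, HEMGN, ERMAP, H2BC12 and RPL41 stand apart in the 18 h libraries.

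Transcripts of the β-globin locus rose. The locus holds the embryonic, fetal and adult β-like globin genes in a row on the minus strand of chromosome 11, with olfactory receptor genes beyond. All 7 tested transcripts within 400 kb of HBG1 on its strand were called higher, beside 5.19% of all tested transcripts. Only HBD and HBG1 were counted outside other coding transcripts of that strand, so that the 7 are not separate risers. Their sum went from 1188, 648 and 731 RPM in CTRLim to 1878, 1769 and 1903 in IM 18h. HBG1, a fetal γ-globin, had 426, 217 and 262 RPM in the controls and 713, 647 and 684 after 18 h (log2 fold change 1.21 ± 0.22, edgeR adjusted p = 6.31e-05). HBE1, the embryonic ε-globin, had 344, 181 and 252 in the controls and 437, 433 and 466 after 18 h (0.82 ± 0.22, edgeR adjusted p = 0.00664). CTRLim 1 was the highest control for both genes, yet below all IM 18h libraries. HBE1 lost its call without CTRLim 2 (adjusted p = 0.137) or CTRLim 3 (0.0573), or with these 2 as 1 library (0.0699).

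HBD, the δ-globin, stood out because it was nearly silent in CTRLim. It had 1 read in all CTRLim libraries together, at 0, 0 and 2.03 RPM, and 22.3, 29.7 and 30.4 RPM in IM 18h. Such a gene passed the filter only through its IM 18h reads. The ratio of the groups was 35.4 (95% counting interval 6.21 to 1412, counting error only) and the edgeR adjusted p was 5.15e-06. After 1 h it was at 4.23 ± 2.87 RPM, and in the untreated cells of CTRL at 4.68 ± 6.12. The α-globin gene HBA2 had 2 reads in CTRLim and 34 in IM 18h, and with an edgeR adjusted p of 0.0578 it did not pass. HBA1 had 2 and 25 reads, too few to be tested. HBG1 and HBG2, and HBA1 and HBA2, are near-identical copies, so the split of their reads is uncertain. ENSG00000239920, a long transcript that spans HBE1 and the OR51 genes and whose counted region lies inside HBG2, rose from 370, 226 and 191 to 601, 576 and 640 RPM, or by 1.25 ± 0.22 (edgeR adjusted p = 4.73e-05), and HBE1, OR51B5, OR51B4 and OR51I1 are likewise counted inside longer transcripts on their strand. Reads counted for OR51I1, an olfactory receptor gene, rose from 30.5, 16.7 and 14.2 to 61.7, 48.5 and 48.9 RPM (1.50 ± 0.34, edgeR adjusted p = 0.00141), while the calls of OR51B5 (2.05 ± 0.56) and OR51B4 (1.53 ± 0.52) were lost without CTRLim 2 or CTRLim 3, and that of OR51B4 also without CTRLim 1 or IM 18h 2. OR51B4 was lost, too, with CTRLim 2 and 3 as 1 library.

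Genes of the red cell membrane, surface and iron supply formed the list with the most risers. Of its 55 members with counts 18 could be tested, and 11 of these rose and 2 fell. Among all tested transcripts 5.19% were higher and 8.95% lower. The median log2 fold change was 2.33, or 2.24 with genes unread in CTRLim set to their bound. Several members nearly unread in CTRLim, described below, passed the filter only through their IM 18h reads. Such members could be tested only as risers, which can raise both the share of risers and the median. Summed over all 55 members, tested or not, the level was 179 to 257 RPM in CTRLim and 435 to 466 in IM 18h. ERMAP, a blood group antigen of the red cell membrane, had 21.8, 7.41 and 18.3 RPM in CTRLim and 86.2, 75.2 and 74.1 in IM 18h (2.43 ± 0.35, edgeR adjusted p = 1.42e-06). The groups were far apart, and after 1 h the gene stood near the controls, at 21.9 ± 4.81 RPM.

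GYPE and GYPB, glycophorin genes that are close paralogs with shared reads possible, rose as well, GYPB with a ratio of 17 (95% counting interval 2.91 to 685). AHSP, which holds free α-globin, had no read in CTRLim and 11.7, 11.7 and 13.3 RPM in IM 18h, at least 5.16-fold higher when set against 3 reads over the group (edgeR adjusted p = 0.000415). KEL, the Kell blood group antigen whose promoter is printed above, had no read in CTRLim either and 10.6, 8.61 and 14.8 in IM 18h, at least 4.78-fold higher (edgeR adjusted p = 0.000714). Both were unread in CTRLim and became readable in every IM 18h library. In the untreated cells of CTRL, AHSP had no read, but KEL was at a mean of 3.03 RPM. HEMGN, a nuclear protein of erythroid cells, had 2 reads in CTRLim and 82 in IM 18h (ratio 14.5, 3.89 to 122). TMOD1, which caps actin filaments of the membrane skeleton, had 2 and 61 (ratio 10.8, 2.86 to 91.1). PKLR, the red cell pyruvate kinase and no member of the list, had the same read counts of 2 and 61. BPGM, which makes the 2,3-bisphosphoglycerate that tunes oxygen binding, had 1 and 41 and lost its call without CTRLim 3 (adjusted p = 0.06), as the mitochondrial iron importer SLC25A37 (2.23 ± 0.63) did without CTRLim 2 (0.111). Against this direction, FTL, the ferritin light chain that stores iron, fell from 100, 57.4 and 67.0 to 22.3, 36.8 and 23 RPM (-1.36 ± 0.29, edgeR adjusted p = 0.000708). SPTBN1, a spectrin mostly of other tissues, fell by 1.73 on the log2 scale. Without IM 18h 3 the list had 7 risers instead of 11.

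Among enzymes of heme synthesis, FECH, which inserts the iron, rose from 3 reads in CTRLim to 41 in IM 18h (ratio 4.84, 1.54 to 24.4, edgeR adjusted p = 0.0325). UROD, an earlier enzyme of the pathway, was at 370, 167 and 173 in CTRLim and 216, 236 and 207 in IM 18h and did not pass (-0.04 ± 0.23). FECH was not called without CTRLim 2 (adjusted p = 0.278) or CTRLim 3 (0.157), or with these as 1 library (0.0567). Among 8 tested erythroid and megakaryocyte transcription factors 2 rose, TAL1 and IKZF1, beside 5.19% higher among all tested, with a list median of 0.46. TAL1 went from 30.5, 31.5 and 26.4 to 61.7, 52.4 and 56.3 RPM (0.95 ± 0.30, edgeR adjusted p = 0.0231), and the groups did not overlap. IKZF1 rose by 1.66 ± 0.49 (edgeR adjusted p = 0.0139). Both calls were lost without CTRLim 2 (adjusted p = 0.0715 and 0.178) or CTRLim 3 (0.12 and 0.104), and that of TAL1 with CTRLim 2 and 3 as 1 library (0.0577). GATA1 had 5 reads in CTRLim and 9 in IM 18h, too few for a test.

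The GATA letters AGATAA, on either strand, were found in the promoters of 12 of the 51 risers that had one in the table (23.5%), among them HBD, KEL, TAL1, HEMGN, PKLR, GYPB, GYPE and IKZF1. They were found in 4 of 104 promoters of genes that fell (3.85%), in 79 of 1071 of tested genes (7.38%) and in 10.3% of all 35116 promoters. Risers were counted by gene, so a riser with several promoters had more chances to hold the letters than a single one of the 35116. A match of letters is no evidence of binding.

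TUBB1, the β-tubulin of platelets, was the only one of 13 listed megakaryocyte genes in the table with enough reads. These came almost all from IM 18h, so the gene could be tested only as a riser. It had 0, 1.85 and 0 RPM in CTRLim and 36.2, 21.9 and 23 in IM 18h (ratio 32.9, 5.76 to 1314, edgeR adjusted p = 9.07e-06). Its counted region lies antisense to ATP5F1E, a subunit of ATP synthase, which fell (-1.10 ± 0.38). FAXDC2, which is linked to megakaryocyte differentiation, was the riser with the second smallest adjusted p. It went from 0, 1.85 and 0 to 40.4, 29.0 and 29.6 RPM (ratio 40.7, 7.16 to 1621, edgeR adjusted p = 1.42e-06). Neither gene overlapped between groups, and after 1 h they stood at 3.49 ± 1.89 and 9.87 ± 2.39. ITGB3, an integrin of platelets, had no read in CTRLim and 4 in IM 18h. ERV3-1 rose from 0, 18.5 and 6.09 to 55.3, 64.2 and 48.2 RPM (edgeR adjusted p = 2.23e-05), but its counted region lies inside ZNF117.

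Genes of cell cycle exit that FOXO factors can drive gave a mixed picture, with 3 of 14 tested higher, 1 lower and a median log2 fold change of 0.83. Among all tested, 5.19% were higher and 8.95% lower. CITED2, a transcriptional co-regulator, had 0, 3.70 and 4.06 RPM in CTRLim and 28.7, 29.0 and 24.5 in IM 18h (3.05 ± 0.57, edgeR adjusted p = 9.3e-05). It was already at 15.8 ± 2.51 after 1 h. TXNIP, which restrains glucose uptake and thioredoxin, went from 496, 374 and 372 to 703, 758 and 665 RPM (0.79 ± 0.20, edgeR adjusted p = 0.00463). Its groups did not overlap, but the call was lost without CTRLim 2 (adjusted p = 0.0599), CTRLim 3 (0.0626) or IM 18h 2 (0.0512), or with CTRLim 2 and 3 as 1 library (0.0545). CDKN2C, the p18 inhibitor of CDK4 and CDK6, rose by 1.30 ± 0.46 (edgeR adjusted p = 0.0449) and lost its call without CTRLim 2, CTRLim 3 or IM 18h 2, or with CTRLim 2 and 3 as 1 library. GADD45A, a growth arrest gene, fell by 0.92 on the log2 scale (edgeR adjusted p = 0.0158), a call lost without CTRLim 1 or IM 18h 2. Against CTRL its value turned to 0.34.

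Replication-dependent histone genes, which supply new chromatin in S phase, were the largest class among the fallers. Of 41 tested members 22 fell and 1 (H2AC11) rose, beside 8.95% lower among all tested, and the median log2 fold change was -0.94. Summed over the 63 members in the table, histone readthrough went from between 3124 and 3442 RPM in CTRLim to between 1693 and 1968 in IM 18h. H2BC12 had 222, 239 and 217 RPM in CTRLim and 75.5, 75.9 and 101 in IM 18h (-1.42 ± 0.22, edgeR adjusted p = 5.78e-06). H3C2 went from 131, 168 and 160 to 66.0, 54.0 and 63.0 (-1.35 ± 0.23, edgeR adjusted p = 2.98e-05). H4C9 went from 122, 154 and 150 to 56.4, 62.6 and 57.1 (-1.29 ± 0.23, edgeR adjusted p = 6.17e-05). Each IM 18h library was below each control for these genes. By family, 3 of 4 tested H1 genes fell, 6 of 11 H2A, 3 of 9 H2B, 6 of 9 H3 and 4 of 8 H4. Histone genes share long near-identical stretches, and the authors removed nonunique reads, so single members are less certain than the class.

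The class is described next by the signal at the gene end. The stem-loop core CTTTTNAG lay in the last 100 bases of 35 of the 41, as in H2BC12, H3C2, H4C9 and H1-2 printed above, beside 1.91% of the other tested transcripts. Of these 35, 21 fell, 33 had a negative log2 fold change and the median was -0.97. The other 6 had no such core and a poly(A) signal (AATAAA or ATTAAA) in the last 50 bases, and of these 1 fell (H3C10, -0.63 ± 0.22), 3 had a negative value and the median was 0.05. H2BC21 was at 38.1 RPM in CTRLim and 38.8 in IM 18h (-0.08 ± 0.30), and H2AC6 was at 14.3 in both. The summed level of the 35 fell from 2741, 3076 and 3094 to 1413, 1666 and 1650 RPM, and that of the 6 was 374, 331 and 278 against 247, 242 and 277. Both sums were lower in every IM 18h library than in every control. The difference between both kinds was not tested, and the 6 genes are few. Of the 6, H2BC4, H2BC11 and H2AC6 were counted on transcripts of 2 exons. Only the end of the counted transcript was searched, so a core further upstream in these genes would be missed.

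The histone counts depended on the control. In the 3 CTRL libraries, untreated cells of the other library set, the 63 histone genes summed to a mean of 1886 RPM, beside 1869 in IM 18h and 3325 in CTRLim, and with CTRL as the control only 2 members were called lower, while the log2 fold change of H4C9 turned to 0.40. Against CTRL the median log2 fold change of all tested transcripts was 0.52. Without CTRLim 2 the count was 14. Which untreated set is nearer to the cells before treatment cannot be told apart here, and CTRL and imatinib libraries differ in library set. After 1 h of imatinib the sum was 2873.

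**Figure D3:**
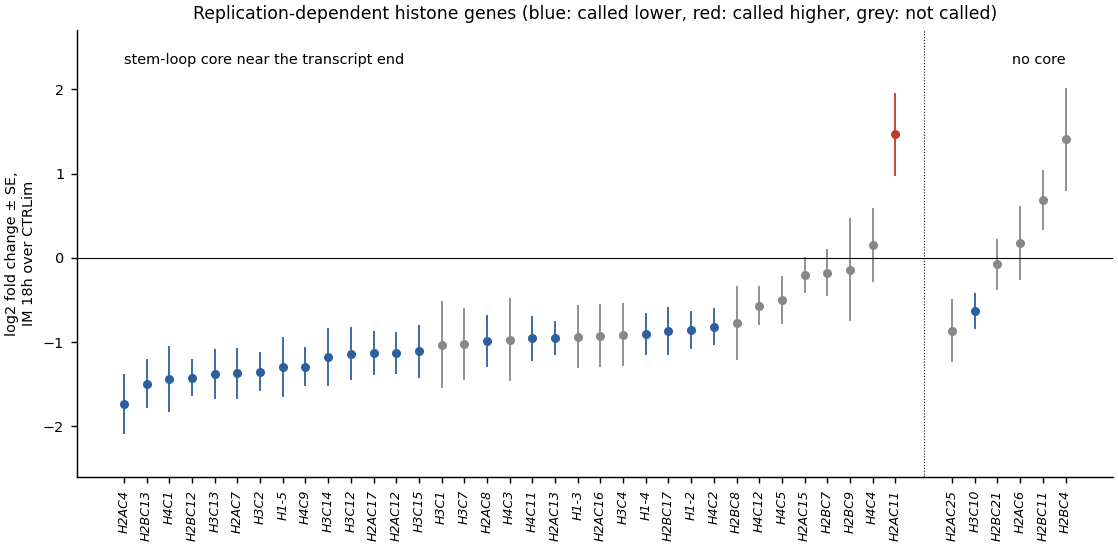
Log2 fold change, IM 18h over CTRLim, with its SE for the 41 tested replication-dependent histone genes, ordered within those with a stem-loop core near the transcript end (35, left of the dotted line) and those without (6, right). Of the 35, 33 lie below 0; the 6 lie on both sides.

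Some genes of the protein synthesis machinery fell, and most tested members did not pass. Of 42 tested cytosolic ribosomal protein genes 16 fell and none rose, beside 8.95% lower among all tested. A negative value was found for 39 of them, and the median log2 fold change was -0.80. RPL41 went from 135, 107 and 89.4 to 27.7, 39.1 and 33.3 RPM (-1.67 ± 0.26, edgeR adjusted p = 5.4e-06). RPL38 went from 39.2, 25.9 and 40.6 to 4.26, 4.70 and 11.1 (-2.28 ± 0.41, edgeR adjusted p = 6.02e-05). RPL32 (-1.37 ± 0.27) and RPL10A (-1.35 ± 0.27) followed, again without overlap of the groups. The sum over all 77 members in the table went from between 1664 and 2040 RPM to between 761 and 1015, beside a mean of 1873 after 1 h of imatinib and of 1543 in CTRL. Many ribosomal protein genes have processed copies elsewhere in the genome, so reads could be shared.

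Ribosome biogenesis genes, 23 tested, had 6 fallers and no riser, beside 8.95% lower among all tested, with a median of -0.74. Among them DDX18, a nucleolar helicase, fell by 1.54 ± 0.37 on the log2 scale (edgeR adjusted p = 0.00256) and C1QBP by 1.98 ± 0.51 (edgeR adjusted p = 0.00422). WDR43, part of the small subunit processome, went from 8.70, 16.7 and 12.2 to 2.13, 4.70 and 3.70 RPM (-1.84 ± 0.57, edgeR adjusted p = 0.0196). This count was 3 without CTRLim 1, 2 without CTRLim 2 or CTRLim 3, 3 without IM 18h 3 and 3 with CTRLim 2 and 3 as 1 library. Of 8 tested host genes of small nucleolar RNAs, which guide modification of ribosomal RNA, 5 fell, beside 8.95% lower among all tested. They were HSPA8, RPSA, HSPA9, EIF4A2 and TAF1D, and the list median was -0.92. EIF4A2, a helicase of translation initiation, went from 348, 254 and 254 to 177, 175 and 148 (-0.76 ± 0.21, edgeR adjusted p = 0.0102) and lost its call without IM 18h 3 (adjusted p = 0.0686). HSPA9 lost its call without CTRLim 3 or IM 18h 2, and TAF1D without CTRLim 2 or with CTRLim 2 and 3 as 1 library. Against CTRL the values of EIF4A2, TAF1D and RPSA turned to 0.73, 1.07 and 0.17. EEF1A1, which brings aminoacyl-tRNA to the ribosome, fell by 1.15 ± 0.24 (edgeR adjusted p = 0.000439), and it and EIF4A2 were the 2 of 15 translation factors that fell. The list of tRNA synthetases, with a median of -0.80 over 7 tested, had 1 faller (AARS1), a call lost when any library but IM 18h 1 or IM 18h 2 was left out.

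**Figure D4:**
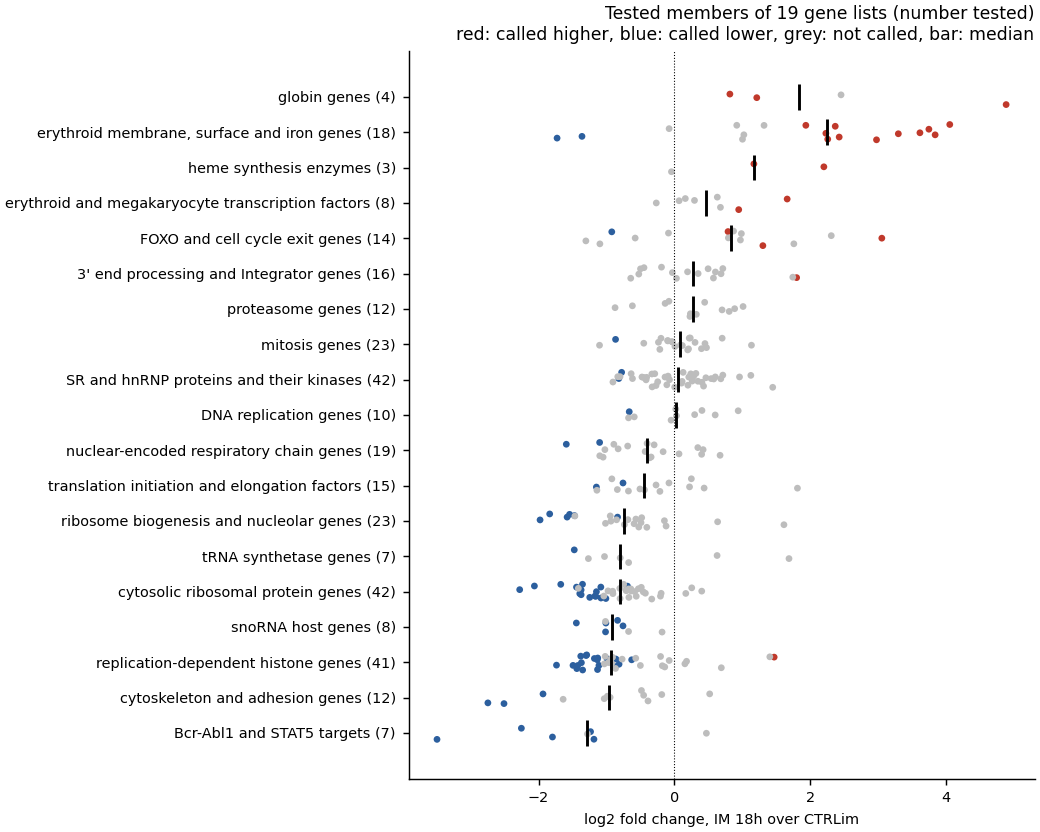
Log2 fold change, IM 18h over CTRLim, of the tested members of 19 gene lists (number tested in parentheses), 1 point per transcript, with transcripts unread in CTRLim at their bound; red passed the test as higher, blue as lower, grey did not pass, and bars are list medians. Globin and erythroid lists have medians above 0, and histone, ribosomal protein and Bcr-Abl1 target lists have medians below 0.

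The faller with the smallest adjusted p was VMP1. It went from 47.9, 70.4 and 112 to 6.38, 12.5 and 3.70 RPM (-3.38 ± 0.37, edgeR adjusted p = 4.04e-09), with 36.2 ± 5.52 after 1 h. The transcript counted for this autophagy gene is a single exon at its 3′ end (chr17:59837931-59842255, plus strand) that spans the hairpin of MIR21 (chr17:59841266-59841337). Its readthrough reads end from position 59842356 on, 1019 bases past the hairpin. The main product of MIR21 is given with its seed, bases 2 to 8, in capitals (RefSeq, GRCh38.p14).
hsa-miR-21-5p: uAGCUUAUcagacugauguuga

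The other leading fallers belong to no common class. CFAP161 went from 78.3, 55.5 and 83.3 to 4.26, 11.7 and 5.93 RPM (-3.22 ± 0.36, edgeR adjusted p = 5.83e-09). TMEM273 had 38 reads in CTRLim and 3 in IM 18h, a ratio of 35.8 (11.4 to 181) toward the controls. ANKRD62 fell by 3.54 ± 0.49 (edgeR adjusted p = 6.16e-07). After 1 h CFAP161 and ANKRD62 were at 65.7 ± 3.04 and 27.1 ± 6.36 RPM, and TMEM273 was at 6.38 ± 4.21. DDIT4, an inhibitor of mTORC1 that is induced by stress, went from 39.2, 35.2 and 63.0 to 2.13, 7.05 and 9.63 (-2.78 ± 0.41, edgeR adjusted p = 1.76e-06). SLC38A2, an amino acid importer, fell by 1.14 ± 0.26 (edgeR adjusted p = 0.00141), and both were the fallers among 9 tested amino acid and ATF4 response genes. ATF4 itself was at 74.0, 66.7 and 63.0 in CTRLim and 38.3, 41.5 and 46.7 in IM 18h and did not pass (-0.66 ± 0.26, edgeR adjusted p = 0.0869). VIM, the intermediate filament vimentin, went from 21.8, 37.0 and 34.5 to 5.32, 6.26 and 2.96 (-2.75 ± 0.42, edgeR adjusted p = 4.62e-06). With TMSB4X, which binds actin monomers, and S100A6 it made 3 fallers of 12 tested cytoskeleton and adhesion genes, whose median was -0.97. Among all tested transcripts 8.95% were lower. Several of the genes in this paragraph were lower in the untreated cells of CTRL than in CTRLim. DDIT4 and SLC38A2 were at means of 6.53 and 5.94 RPM there, and against CTRL their log2 fold changes turned to 0.17 and 2.85. ANKRD62 had no read in CTRL, TMEM273 was at 6.94 RPM and VIM at 11.1. VMP1 and CFAP161, at 38.1 and 44.1 RPM in CTRL, stayed lower in IM 18h against that control (-2.39 and -2.58).

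Other lists held few called genes, to be read beside 5.19% higher and 8.95% lower among all tested. None of 12 proteasome genes, 10 nucleotide synthesis genes and 10 mitochondrially encoded genes passed. Of 42 SR and hnRNP genes and their kinases 2 fell (SRSF2 and DDX5) at a median of 0.05, and of 16 genes of 3′ end processing 1 rose (SCAF8, counted inside TIAM2) at a median of 0.27, a call lost without CTRLim 2 or CTRLim 3. Among 23 mitosis genes 1 fell (TUBA1B), and among 10 DNA replication genes 1 fell (MCM7), both medians being near 0 at 0.09 and 0.02. The calls of SRSF2, MCM7 and TUBA1B were each lost without CTRLim 2 and without at least 1 IM 18h library. CDK1, the mitotic kinase, was at 78.3, 31.5 and 58.9 RPM in CTRLim and 51.1, 39.1 and 45.9 in IM 18h (-0.21 ± 0.29). RRM2, a subunit of ribonucleotide reductase, was at 34.8, 14.8 and 20.3 in CTRLim and 8.51, 14.9 and 14.8 in IM 18h (-0.68 ± 0.41). Neither passed, and whether these genes differ from the histone genes was not tested. Lists with a single riser or faller included cholesterol synthesis (HMGCS1 higher), glycolysis (TPI1 lower), mitochondrial ribosomal proteins (MRPL36 lower) and variant histones (H2AX lower). Of these calls, that of HMGCS1 was lost without CTRLim 2, those of TPI1 and MRPL36 without CTRLim 3 and that of H2AX without CTRLim 2, CTRLim 3, IM 18h 1 or IM 18h 2. Both immediate early genes tested, DUSP1 (1.25 ± 0.48) and KLF10 (1.18 ± 0.50), missed the threshold, with edgeR adjusted p of 0.0728 and 0.0967. Of 19 respiratory chain genes 2 fell (ATP5F1B and ATP5F1E), of 12 chaperones 3 (HSPA8, HSPA9 and HSP90AB1), and of 13 zinc finger genes on chromosome 19 also 2 (ZNF586 and ZNF416). ATP5F1B lost its call without CTRLim 3, ATP5F1E without CTRLim 1, CTRLim 3 or IM 18h 2, HSP90AB1 without any CTRLim library or IM 18h 3, and ZNF586 without CTRLim 1, CTRLim 3 or IM 18h 2. Against CTRL the values of ATP5F1E and DDX5 turned to 0.63 and 0.58. Of 7 lysosome and autophagy genes 1 fell (VMP1), at a list median of 0.62, and of 18 solute carriers 1 rose (SLC25A37) and 1 fell (SLC38A2), at a median of -0.08.

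Genes that fell were short. The span of the annotated transcript had a median of 5018 bases for 122 matched fallers, of 22342 for 71 matched risers and of 16418 for all 1348 matched transcripts tested. Leaving out histones and ribosomal proteins, the remaining 84 fallers had a median of 7263. The tested transcripts were cut into 4 bins of 337 by this span. Among the shortest 19.6% fell and 4.75% rose, and among the longest 2.37% fell and 7.12% rose. The median log2 fold change climbed from -0.42 in the shortest bin over -0.15 and 0.09 to 0.30 in the longest. Single-exon transcripts made up 21.3% of fallers and 8.45% of risers, but 4.0% of fallers that are not replication-dependent histones. Whether read length or size selection had a part in this was not tested.

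**Figure D5:**
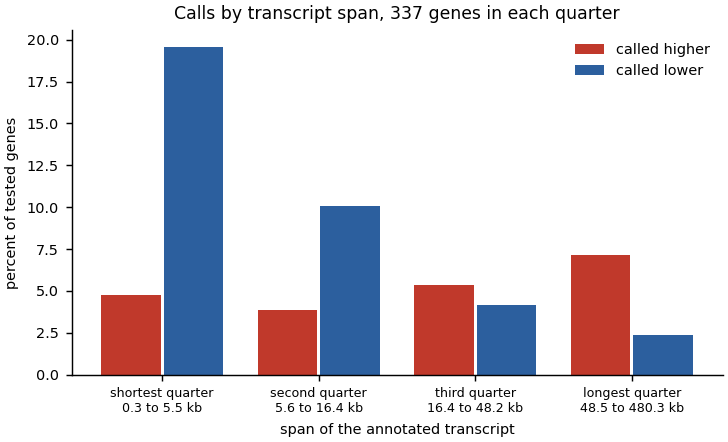
Percent of tested transcripts called higher (red) and lower (blue) in IM 18h, in 4 bins of 337 transcripts by the span of the annotated transcript; bars start at 0. The share called lower falls from 19.6% to 2.37% from the shortest to the longest bin, and the share called higher is 4.75% and 7.12% there.

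Neighbouring genes bear on some of these values. The counted region lay inside a protein-coding gene on the same strand for 12 of 71 matched risers (16.9%), 8 of 122 fallers (6.56%) and 147 of 1348 tested transcripts (10.9%), so that reads of the longer gene could have been assigned to the shorter one. Leaving out these 147 transcripts, 175 genes were called, 60 higher and 115 lower.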

How the data were processed

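Chromatin-associated nascent RNA was sequenced as long reads in 18 libraries, of which the 3 IM 18h and 3 CTRLim libraries were compared. Per the study's methods, the authors trimmed reads with cutadapt, mapped them with minimap2 to GRCh38.p14, collapsed them by UMI and removed polyadenylated and nonunique reads. The deposited values are counts of readthrough reads per transcript, which end over 100 nt downstream of the gene's most distal annotated 3′ end. Library totals come from the mapping statistics of the study, after removal of splicing intermediates.

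Counts were tested with edgeR 4.0.16 (R 4.3.3, quasi-likelihood, Benjamini-Hochberg adjustment, library totals as library size) over the 1386 of 13051 transcripts with at least 30 reads over the 6 libraries. Gene names were matched by transcript for 12704, and 347 were not matched. DESeq2 1.42.0 served as an alternative. Other values were computed with Python 3.11.15, pandas 2.3.3, numpy 2.4.6 and scipy 1.17.1, and drawn with matplotlib 3.10.9. The fitting was tested on simulated data. A fold against a group without reads was set against 3 reads over that group, or 2.38 RPM in CTRLim. With 1 to 3 reads in a group the ratio is given with an exact conditional 95% interval. Intervals and floors cover counting error only. A tested transcript had a median of 14 reads in CTRLim and 37 in IM 18h, which limits the precision for genes low in CTRLim.

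Named genes were drawn from the 10 called genes of smallest adjusted p in each direction whose libraries do not overlap, up to 4 called members of each list, well-read members of lists with under 2 called members, tested members of the target, globin, heme and study lists, and called genes with at most 3 reads in every library of a group. Not every gene that meets these rules is described above. Other named genes were chosen after their values were seen. The members and gene lists were chosen with earlier results of these data known. A list of genes discussed by the study is not independent of these libraries: of 11 tested, 3 were higher and 3 lower, at a median log2 fold change of -0.04. The replicates are named as biological by the study, so p-values measure the spread between these libraries. Alternatives covered scaling, filters, tool, control libraries, a replicate block and leaving out each library. Leaving out transcripts inside a coding gene, and summing CTRLim 2 and 3, were added after seeing the data. Results for some genes are not reported here.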

Additional observations from a re-analysis of the deposited data

Results flagged for a closer look

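Relative to CTRLim, TXNIP moved in opposite directions at the time points. All IM 1h libraries lay below all CTRLim libraries and all IM 18h libraries lay above them, with means of 242 ± 26.8, 414 ± 71.1 and 709 ± 46.8 RPM (SD, n = 3 each). The log2 difference between IM 18h and IM 1h was 1.55 ± 0.10 (edgeR adjusted p = 7.15e-28). TXNIP was picked by these same values, which fixed the direction beforehand, so this p-value is no separate support. In the untreated cells of CTRL the mean was 110 ± 40.3 RPM, below both imatinib groups, so the opposite direction depends on the control.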

How the results depend on the processing

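No called gene changed direction under another scaling, filter, tool, replicate block or left-out library, and 28 of 72 higher and 42 of 124 lower calls held in each of the 18 settings with CTRLim as the control in which they were tested. A gene without a DESeq2 adjusted p was counted as not tested there, which makes these counts generous. That concerned 403 of 1386 transcripts with its own size factors and 645 with library totals, where only 24 genes were called higher. Leaving out 1 library gave 116 to 189 called genes, 61 to 97 called list members, 7 to 11 erythroid membrane genes, 2 to 5 ribosome biogenesis genes and 14 to 23 histone genes. DESeq2 with its own size factors called 78 genes, 42 list members, 5 erythroid membrane, 2 ribosome biogenesis, 1 snoRNA host, 5 ribosomal protein and 9 histone genes, and with library totals 105 genes (22.9% higher, beside 36.7%), 61 list members, 4 erythroid membrane and 3 ribosome biogenesis genes. A fit on all 18 libraries called 113 genes, 55 list members, 2 ribosome biogenesis, 1 snoRNA host, 8 ribosomal protein and 12 histone genes. At least 60 reads left 3 Bcr-Abl1 targets, 6 erythroid membrane and 2 ribosome biogenesis genes, while no filter, or CTRLim 2 and 3 as 1 library, left 3 ribosome biogenesis genes. TMM scaling called 202 genes, 45.0% of them higher. With the 6 untreated libraries as the control 56 list members, 3 ribosome biogenesis, 2 snoRNA host, 9 ribosomal protein and 3 histone genes were called. With CTRL alone 267 genes were called (72.3% higher), among the lists 1 snoRNA host, 9 ribosomal protein and 2 histone genes. Of the 196 genes called against CTRLim, 175 were tested there, 75 kept their call and 23 changed direction. Among these 23 were DDIT4 (log2 fold change 0.17), H4C9 (0.40), H2BC13 (0.05), SLC38A2 (2.85), RPSA (0.17), ENSG00000291024 (-0.65), EIF4A2 (0.73), DDX5 (0.58), TAF1D (1.07), GADD45A (0.34), MAGEC1 (-0.02) and ATP5F1E (0.63). The cause of these changes was not tested. The replicate block called 195 genes, 188 of them among the 196, and same-numbered libraries deviated together with correlations of 0.017 to 0.099, so the numbers were not taken as pairs.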

Other observations

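The 10 tested mitochondrially encoded transcripts were uneven within IM 18h: the 11 in the table summed to 796, 176 and 404 RPM in its libraries, beside 509, 431 and 349 in CTRLim. KLF1, an erythroid transcription factor, had 3, 4 and 4 reads in CTRLim and 7, 26 and 16 in IM 18h (log2 fold change 0.63 ± 0.51, not past the threshold).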
